A study of Mus musculus with 15 samples.

Results

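The comparison described here pooled retinas that had lost either subunit of the cone cyclic nucleotide-gated channel and set them against retinas that kept both. The pooled side held 10 arrays, 5 from mice lacking Cnga3 and Nrl (CNGA3-/-/Nrl-/-, called the Cnga3 double knockout) and 5 from mice lacking Cngb3 and Nrl (CNGB3-/-/Nrl-/-, the Cngb3 double knockout). The other side held 5 arrays from mice lacking Nrl alone (Nrl-/-, the Nrl knockout), so that all 15 arrays of the series entered. The mice were at postnatal day 30 on a C57BL/6 background, the Nrl deletion was common to the 3 groups, and each array carried the RNA of the 2 retinas of 1 animal. Groups were taken from the genotype labels, each double knockout had equal weight in the pooled mean, and a gene was counted only when it moved with the same sign in both genotypes. Of 25697 probes on the Illumina bead array, 13077 that were detected (p under 0.01) on 5 or more arrays were tested, covering 9097 genes.

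In cones, light closes a channel in the outer segment membrane that is held open by cGMP and carries sodium and calcium into the cell. Cnga3 encodes the subunit that forms the channel, and Cngb3 encodes the subunit that tunes it; mutations of either cause achromatopsia in humans. Nrl is the transcription factor that sets the rod fate, and photoreceptors of retinas without it are cone-like, which gives a retina where the cone channel is studied without rods, and not a normal mixture of rods and cones. RNA came from whole retina, so a lower level cannot be told apart from fewer cells of the type that makes the transcript.

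The promoters of 4 genes with some of the largest changes are shown first, since the photoreceptor homeobox factor Crx recognises sites with the core TAATC and the genes differ in how often these letters occur. Sequences are from RefSeq (GRCm38.p6), cover the 250 bases before the annotated start, are written 5′ to 3′ on the gene's strand, and carry every TAATC on either strand in capitals (GATTA is the same site read from the other strand). Arr3 (chrX:100605247-100605496, plus strand) encodes cone arrestin, Pde6b (chr5:108388123-108388372, plus strand) a phosphodiesterase subunit, Pdzph1 (chr17:58991376-58991625, minus strand) a protein named for its PDZ and pleckstrin homology domains, and Drd4 (chr7:141291768-141292017, plus strand) a dopamine receptor.
Arr3: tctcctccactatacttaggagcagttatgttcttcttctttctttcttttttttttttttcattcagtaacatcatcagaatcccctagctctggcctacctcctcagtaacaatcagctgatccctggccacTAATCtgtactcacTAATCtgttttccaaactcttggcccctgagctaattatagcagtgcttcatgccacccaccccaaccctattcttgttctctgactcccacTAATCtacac
Pde6b: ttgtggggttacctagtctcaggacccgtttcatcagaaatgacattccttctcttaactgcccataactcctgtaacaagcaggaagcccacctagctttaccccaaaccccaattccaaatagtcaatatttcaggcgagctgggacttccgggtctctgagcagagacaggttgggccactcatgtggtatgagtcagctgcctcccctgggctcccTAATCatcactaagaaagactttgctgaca
Pdzph1: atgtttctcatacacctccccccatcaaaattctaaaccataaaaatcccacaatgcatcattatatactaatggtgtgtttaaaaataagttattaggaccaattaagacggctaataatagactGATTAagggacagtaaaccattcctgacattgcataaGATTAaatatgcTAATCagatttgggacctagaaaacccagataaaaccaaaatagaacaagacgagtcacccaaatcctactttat
Drd4: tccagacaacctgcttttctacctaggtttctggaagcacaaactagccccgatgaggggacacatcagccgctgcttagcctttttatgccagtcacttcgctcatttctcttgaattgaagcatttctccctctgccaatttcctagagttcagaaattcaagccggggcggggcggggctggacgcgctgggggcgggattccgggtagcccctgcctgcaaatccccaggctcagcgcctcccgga
The letters occurred 3 times in Arr3, 116, 102 and 10 bases before the start, and 3 times in Pdzph1, 124, 87 and 75 bases before it. They occurred once in Pde6b, 30 bases before the start, and in Drd4 there was no match in this window. Among 32851 mouse promoters of the same length, 19.8% held at least 1 TAATC and 0.554% held at least 3. Of 12 genes looked up, 8 were found in the sequence table, and 5 of these held the letters; the motif and the genes were picked after the values had been seen, and a match describes the letters and is no evidence of binding. Arr3, Pde6b and Pdzph1 were lower in the double knockouts and Drd4 was higher, as the array values show. Among the other genes found, the letters did not follow the direction of change. Guca1a, which fell, and Ednrb, which rose, held 1 match each. Fscn2, which fell, and Slc24a1, which rose, held none.

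Signal was similar across arrays. Median intensity ran from 147.3 to 171 in the double knockouts, against 136.8 to 164.7 in the Nrl knockout, and 11646 to 13763 probes were detected on double knockout arrays, against 10302 to 12510 on Nrl knockout arrays. The Nrl probe was detected on 0 of 15 arrays. Cngb3, the targeted gene of 1 of the lines, read 7.03, 6.96, 6.68, 7.24 and 6.84 on the log2 scale in the Cngb3 double knockout, while it was 9.17, 8.33, 8.8, 9.35 and 9.56 in the Cnga3 double knockout and 8.58, 9.66, 7.32, 10.05 and 9.52 in the Nrl knockout. Every Cngb3 double knockout array was below every array of the other groups. The 2 Cnga3 probes did not pass the test in the pooled contrast (log2 fold changes -0.16 and -0.23, adjusted p = 0.605 and 0.288), and the sources used here do not say whether they lie in the deleted part of the gene. Nrl knockout replicates 1 and 3 stood apart in genes of the lens. Mip, the main membrane protein of lens fibres, was at 4.59 and 5.57 there, while its means were 12.9 ± 0.721 in the Cnga3 and 13.5 ± 0.768 in the Cngb3 double knockout (SD, n = 5 each).

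Loss of either channel subunit went with 1001 probes that passed limma's moderated test at an adjusted p under 0.05 with the same sign in both genotypes, 7.65% of those tested. Of these, 586 were higher (4.48%) and 415 lower (3.17%) in the double knockouts. A further 3 probes passed on the pooled mean but ran in opposite directions in the 2 genotypes and were not counted (7.68% passed in all). With each gene represented by its brightest probe, 606 of 9097 genes were called (6.66%), 300 higher (3.3%) and 306 lower (3.36%), so the excess of rises lay among the dimmer second probes of genes and probes without a symbol, where 286 were higher and 109 lower. The excess was also larger at low signal, with 166 higher and 84 lower in the dimmest of 4 equal bins of probes, against 120 and 108 in the brightest. A dim probe could be kept through detection on double knockout arrays alone, so the counts were also taken under other filters. Among probes detected on all 15 arrays, 422 were higher and 437 lower. With no filter on dim probes 474 were higher and 366 lower, so an excess of rises was also present without the filter. The cause of the excess was not tested. Changes were mostly modest, and 75 called probes reached a fold of 2, of which 47 were higher and 28 lower. The 10 double knockout values and the 5 Nrl knockout values did not overlap for 271 probes (2.07%), with 115 higher (0.879%) and 156 lower (1.19%) in the double knockouts, and 233 of these were also called. Single arrays of the Nrl knockout carried much of the count: it was 501 without its replicate 2, 589 without its replicate 5, and 1248 without replicates 1 and 3 together. Of those 1248 probes, 716 were among the 1001, and with arrays centred on the median in place of quantiles the count was 804, of which 75% were higher.

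The largest fall among called genes was that of Guca1b, which encodes a calcium-sensing activator of photoreceptor guanylate cyclase, the enzyme that makes cGMP. On the log2 scale it read 5.66, 5.53, 6.14, 5.25 and 5.6 in the Cnga3 double knockout, 6.24, 5.92, 6.23, 6.14 and 5.76 in the Cngb3 double knockout, and 8.68, 8.92, 9.95, 8.02 and 9.37 in the Nrl knockout. The double knockouts lay close together, and the nearest Nrl knockout array was well above all 10. Pooled, the level was 8.83-fold lower (log2 fold change -3.14, SE 0.233, adjusted p = 5.32e-07).

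Pde6b encodes a catalytic subunit of the rod phosphodiesterase, which breaks down cGMP. It read 7.85, 7.5, 7.44, 6.83 and 7.44 in the Cnga3 double knockout, 8.68, 8.75, 8.62, 8.63 and 8.7 in the Cngb3 double knockout, and 10.18, 10.29, 10.11, 10.13 and 10.4 in the Nrl knockout. The 3 groups formed 3 steps without overlap. The pooled level was 4.52-fold lower (log2 fold change -2.18, SE 0.13, adjusted p = 4.75e-08). The Cnga3 double knockout was below the Cngb3 double knockout by a further -1.26 (95% confidence interval -1.58 to -0.944, adjusted p = 0.000569).

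Arr3, the cone arrestin that ends signalling by activated cone opsin, read 10.72, 10.94, 11.36, 10.94 and 11.04 in the Cnga3 double knockout, 11.29, 11.34, 11.27, 11.21 and 11.61 in the Cngb3 double knockout, and 12.87, 13.26, 13.24, 12.91 and 13.62 in the Nrl knockout. All 10 double knockout arrays were below all 5 of the others. The pooled level was 4.02-fold lower (log2 fold change -2.01, SE 0.135, adjusted p = 2e-07), and the second probe of Arr3 gave -1.96 (SE 0.109). Pdzph1 read 5.26, 4.74, 5.26, 5.36 and 5.66 in the Cnga3 double knockout, 6.00, 6.31, 6.36, 6.3 and 5.98 in the Cngb3 double knockout, and 7.3, 8.79, 6.75, 8.1 and 8.28 in the Nrl knockout. Its groups did not overlap either, although the Nrl knockout arrays were spread widely, and it was detected on 2, 5 and 5 arrays. The pooled level was 4.34-fold lower (log2 fold change -2.12, SE 0.253, adjusted p = 0.000218).

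**Figure D1:**
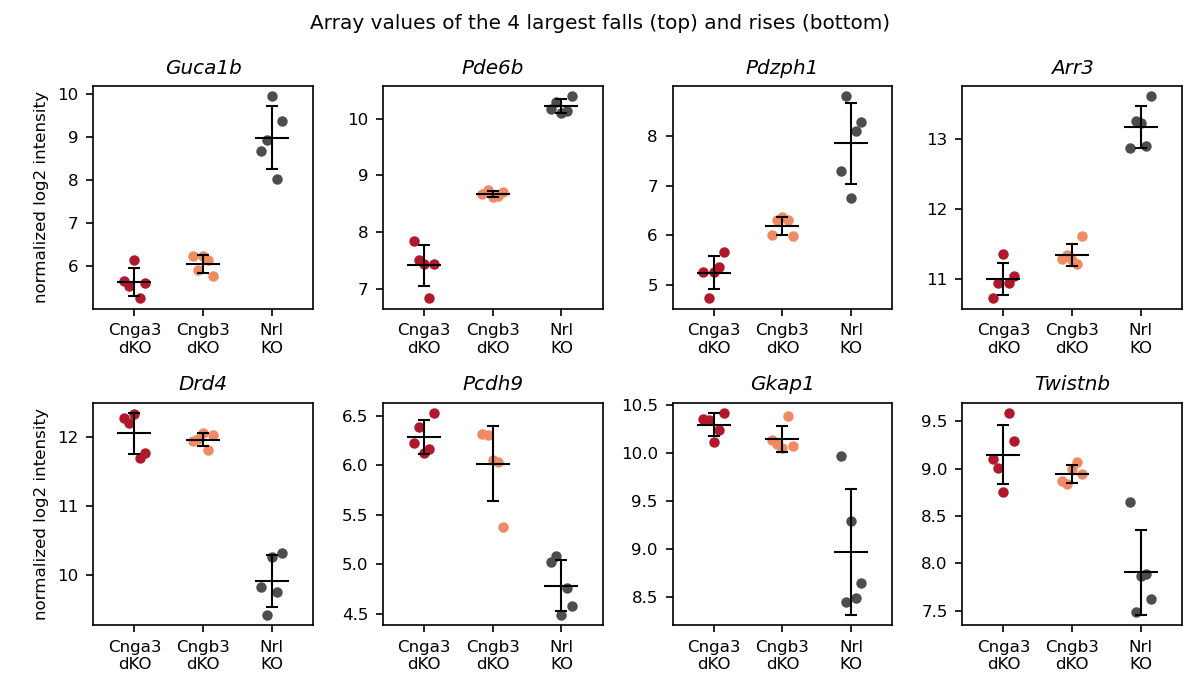
Normalized log2 intensity of 8 genes in each array, with the mean and SD (bars) of the Cnga3 double knockout, the Cngb3 double knockout and the Nrl knockout (n = 5 each). Guca1b, Pde6b, Pdzph1 and Arr3 in the upper row are lower on all 10 double knockout arrays than on any Nrl knockout array, and Drd4, Pcdh9, Gkap1 and Twistnb in the lower row are higher on all 10.

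Among called rises, that of Drd4 was the largest. It encodes the dopamine D4 receptor, through which dopamine lowers cAMP in photoreceptors. Its values were 12.28, 12.21, 12.34, 11.7 and 11.78 in the Cnga3 double knockout, 11.95, 11.98, 12.06, 11.82 and 12.03 in the Cngb3 double knockout, and 9.83, 9.42, 10.26, 9.75 and 10.32 in the Nrl knockout. Both double knockouts sat at the same level, above every Nrl knockout array. The pooled level was 4.29-fold higher (log2 fold change 2.10, SE 0.152, adjusted p = 4.47e-07), and the genotypes differed by 0.0949 (95% confidence interval -0.275 to 0.465).

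Pcdh9, a protocadherin of the cell surface, read 6.22, 6.38, 6.12, 6.16 and 6.53 in the Cnga3 double knockout, 6.31, 6.3, 6.05, 6.03 and 5.38 in the Cngb3 double knockout, and 5.02, 5.08, 4.49, 4.76 and 4.58 in the Nrl knockout, where no array was well above background. It was therefore at least 1.59-fold higher (adjusted p = 0.000103). A fold against a group without detection is taken against that group's detection limit. Gkap1, which anchors the cGMP-dependent protein kinase, read 10.35, 10.34, 10.11, 10.24 and 10.42 in the Cnga3 double knockout, 10.13, 10.09, 10.05, 10.38 and 10.07 in the Cngb3 double knockout, and 9.97, 8.44, 9.29, 8.49 and 8.64 in the Nrl knockout. The highest Nrl knockout array came near the lowest double knockout array without reaching it, and the pooled level was 2.38-fold higher (log2 fold change 1.25, SE 0.198, adjusted p = 0.00211). The dimmer probe of Gkap1 had 0.03 without a call.

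Twistnb, a subunit of RNA polymerase I, read 9.1, 9.01, 8.75, 9.59 and 9.29 in the Cnga3 double knockout, 8.87, 8.84, 9, 9.07 and 8.94 in the Cngb3 double knockout, and 8.65, 7.49, 7.87, 7.89 and 7.63 in the Nrl knockout, again without overlap (log2 fold change 1.14, adjusted p = 0.00123). Atp2b1, the plasma membrane pump that drives calcium out of cells, read 8.77, 8.51, 8.68, 8.37 and 8.9 in the Cnga3 double knockout, 8.63, 8.82, 8.69, 8.73 and 8.4 in the Cngb3 double knockout, and 8.05, 7.37, 6.92, 7.24 and 8.21 in the Nrl knockout. All 10 double knockout arrays were above the others, and the pooled level was 2.13-fold higher (log2 fold change 1.09, SE 0.181, adjusted p = 0.00273). Hspd1, the chaperonin of the mitochondrial matrix, had a log2 fold change of 1.09 (adjusted p = 0.0012) on its dimmer probe and 0.22 without a call on its brighter one. Irf7, a transcription factor of the interferon response, had 1.12 (adjusted p = 0.00935).

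The other large rises without overlap were those of the splicing factor Hnrnph2 (1.14), the growth factor Fgf5 (1.12), the histone genes H4c8 (1.10) and H2ac6 (1.06), the translation factor Eif4g2 (1.10), the sorting nexin Snx14 (1.09) and the chromatin reader Zmynd11 (1.06), all as log2 fold changes with adjusted p-values between 0.000793 and 0.01. The other probes of Hnrnph2 (0.06), Eif4g2 (0.43) and Snx14 (0.36 and 0.17) were not called, while those of Zmynd11 were (0.73 and 0.53). Gm14325 was at least 1.18-fold higher, since it was not well above background on any Nrl knockout array. The other large falls without overlap began with H2al1e, a histone H2A variant gene known from the testis (log2 fold change -1.59, SE 0.141, adjusted p = 7.24e-06). It was detected on 1 Cnga3, 0 Cngb3 and 5 Nrl knockout arrays. Riiad1, named for its domain that resembles the regulatory subunit of protein kinase A, fell 2.7-fold (adjusted p = 1.08e-05). It read 9.22 to 9.84 in the Cnga3 double knockout and 9.4 to 9.94 in the Cngb3 double knockout, and 10.74 to 11.33 in the Nrl knockout.

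Abi3, an actin regulator of the WAVE complex family, fell by 1.15 on the log2 scale and Catsper4, a subunit of the sperm calcium channel, by 1.13. The zinc finger gene Zfp691 (-1.03), the glucokinase regulator Gckr (-1.0), the retinol dehydrogenase family member Rdh9 (-0.99), Pbld2 (-0.98) and the copper transporter family member Slc31a2 (-0.95) also fell without overlap of the groups. Nme7, a nucleoside diphosphate kinase family member, was at least 1.79-fold lower, with no double knockout array well above background. Of its 4 other probes, 1 gave the same call and 3 had the opposite sign, so its direction differs between probes. All 30 genes with the largest changes and no overlap, 15 in each direction, stayed past the threshold when any single array was left out.

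**Figure D2:**
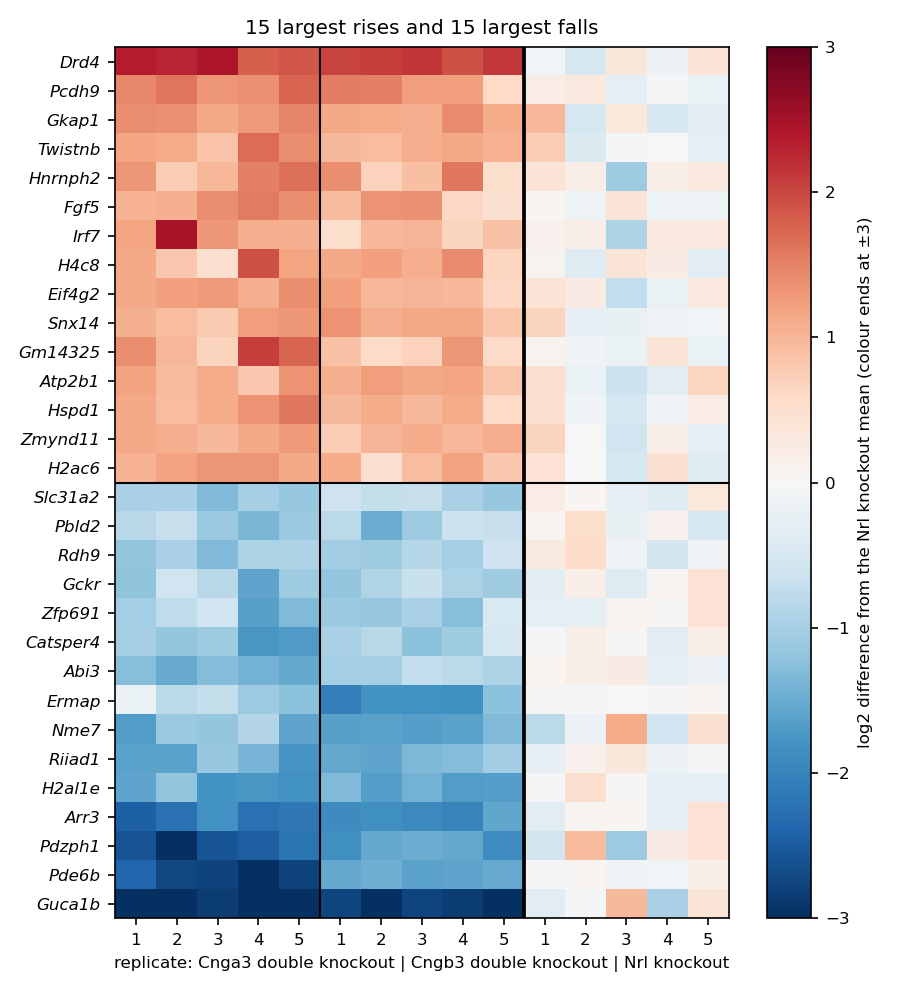
Difference of each array from the Nrl knockout mean (log2 scale, colour limited to 3 either way) for the 15 largest rises and the 15 largest falls whose groups did not overlap. Columns are the arrays of the Cnga3 double knockout, the Cngb3 double knockout and the Nrl knockout; rows keep 1 colour across the 10 double knockout columns, and Pde6b and Ermap show a step between the genotypes.

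Both genotypes were compared with the same 5 Nrl knockout arrays, so their changes share that error, and the same sign in both was required by the way genes were counted. Of the 1001 probes, 208 also passed in each genotype's own contrast, 515 in that of the Cnga3 double knockout alone, 107 in that of the Cngb3 double knockout alone, and 171 in neither. The own contrasts called 1051 probes (8.04%) for the Cnga3 and 351 (2.68%) for the Cngb3 double knockout. The change was larger in the Cnga3 double knockout for 666 of the 1001 probes. A direct test of the Cnga3 minus the Cngb3 double knockout called 53 probes (0.405%), 16 of them among the 1001, so an own call in 1 genotype alone does not by itself show a difference between genotypes. The median ratio of the smaller to the larger change was 0.743.

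**Figure D3:**
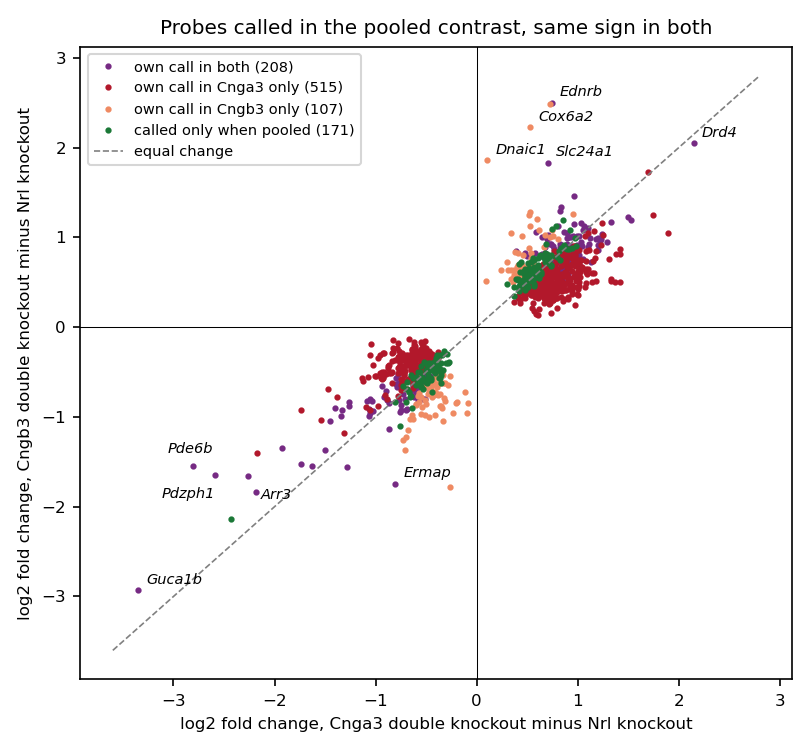
Log2 fold change against the Nrl knockout in the Cnga3 double knockout (horizontal) and the Cngb3 double knockout (vertical) for the 1001 probes called in the pooled contrast, coloured by their own calls (208 in both, 515 Cnga3, 107 Cngb3, 171 pooled only). The dashed line marks equal change; the axes share the Nrl knockout arrays, and Ednrb, Cox6a2, Dnaic1 and Slc24a1 lie above the line.

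Of the 16 pooled calls whose genotypes also differed, several had no own call in 1 genotype. Ednrb, the endothelin B receptor that Mueller glia carry, passed in both own contrasts on its first probe. It read 9.76, 9.7, 9.42, 9.98 and 9.94 in the Cnga3 double knockout, 11.51, 11.58, 11.72, 11.7 and 11.11 in the Cngb3 double knockout, and 9.46, 8.95, 8.32, 9.47 and 8.89 in the Nrl knockout. The Cngb3 arrays were above all others, and 1 Cnga3 array lay within the Nrl knockout range. The pooled change was 1.62 (SE 0.174, adjusted p = 6.3e-05), made of 0.74 in the Cnga3 and 2.50 in the Cngb3 double knockout, and the genotypes differed by -1.76 (adjusted p = 0.000374). The second probe of Ednrb differed by -1.75 and had no own call in the Cnga3 double knockout (adjusted p = 0.0816).

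Slc24a1, the rod exchanger that removes calcium in trade for sodium, read 7.53, 7.14, 7.22, 6.42 and 6.75 in the Cnga3 double knockout, 7.86, 7.96, 8.31, 8.5 and 8.07 in the Cngb3 double knockout, and 6.2, 6.08, 6.29, 6.51 and 6.45 in the Nrl knockout. The Cngb3 arrays were the highest, and a single Cnga3 array fell within the Nrl knockout range (difference between genotypes -1.13, adjusted p = 0.0108). Cox6a2, the muscle-type isoform of a cytochrome c oxidase subunit, read 5.04 to 5.87 in the Cnga3 and 6.16 to 7.55 in the Cngb3 double knockout (difference -1.7, adjusted p = 0.00263). It was not well above background on any Nrl knockout array, which makes the pooled rise at least 1.78-fold, and the Cnga3 double knockout had no own call (adjusted p = 0.167). Ermap, an erythroid membrane protein, ran the other way round in size, with -0.81 in the Cnga3 and -1.74 in the Cngb3 double knockout (difference 0.935, 95% confidence interval 0.55 to 1.32, adjusted p = 0.0353). Nxnl2, a thioredoxin-like gene that supports cone survival, fell by 0.69 pooled (adjusted p = 0.00403), with -0.34 in the Cnga3 double knockout (adjusted p = 0.146) and -1.05 in the Cngb3 double knockout (adjusted p of the difference 0.0399); it was chosen after its values were seen.

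The rule on sign left out 3 probes whose estimates had opposite signs. Esrrb, an orphan nuclear receptor, passed on the pooled mean but had -0.34 in the Cnga3 double knockout, without an own call (adjusted p = 0.16), and 1.27 in the Cngb3 double knockout (adjusted p of the difference 6.51e-05). Dnaic1, an axonemal dynein subunit, was counted on 1 probe (0.10 and 1.86, adjusted p of the difference 0.00135) and left out on its brighter one (-0.05 and 1.86), with no own call in the Cnga3 double knockout on either (adjusted p = 0.809 and 0.905). Trf, the iron carrier transferrin, was the sole probe with opposite calls in both own contrasts, at -0.68 in the Cnga3 and 0.79 in the Cngb3 double knockout, and it did not pass on the pooled mean (0.06, adjusted p = 0.863). These genes were picked after their values were seen. The list of pigment epithelium and melanocyte genes had medians with the signs of Trf, -0.694 in the Cnga3 and 0.163 in the Cngb3 double knockout. Whether the amount of this tissue differed between samples was not tested.

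Pooling brought in 171 probes that neither genotype reached alone (94 higher, 77 lower). The largest rise among them was that of the water channel Aqp5 (log2 fold change 1.03, adjusted p = 0.0453), and the second was that of Pja2, a ubiquitin ligase that acts on the regulatory subunits of protein kinase A (1.0, adjusted p = 0.0233). Pja2 kept its call in all 15 fits that left out 1 array, whereas Aqp5 lost it in 10 and was not called on its brighter probe (0.64). Others were Fstl5 (0.98), Tgs1 (0.95), Krr1 (0.95), Coa7 (0.92), Igfbp7 (0.91), the cell cycle inhibitor Cdkn1b (0.89), the netrin receptor Unc5b (0.89) and the retinaldehyde dehydrogenase Aldh1a1 (0.89). Nrl knockout replicate 3 decided the size of several, since without it the log2 fold change was 0.571 for Fstl5, 0.598 for Tgs1, 0.58 for Krr1 and 0.601 for Igfbp7, and that of Pja2 was 0.658. Without Nrl knockout replicates 1 and 3, the arrays low in lens genes, Igfbp7 had 0.345 (adjusted p = 0.219) and Aldh1a1 0.486 (adjusted p = 0.256), and the calls of Fstl5, Krr1 and Aqp5 were lost too. In Coa7, Cdkn1b and Unc5b those 2 arrays were at double knockout level, and without them the log2 fold changes were 1.58, 1.49 and 1.38. The largest fall was that of Ltf, which encodes the iron-binding protein lactoferrin (-2.29, adjusted p = 0.046). It read at most 5.76 in the double knockouts, against 10.25, 4.82, 6.75, 9.68 and 5.87 in the Nrl knockout, where replicates 1 and 4 were far above the rest, and the call was lost in 12 of 15 fits. Smaller falls were those of Sncg, Rnf225, Wwc1, Gtf2f1, Thrsp, Ckmt2, Gimap4, Rgs9bp and AI987944, with log2 fold changes between -0.93 and -0.69. Those of Sncg and Rgs9bp were on the dimmer probe, and the brighter one had 0.06 for Sncg and -0.27 for Rgs9bp, neither called. Without Nrl knockout replicates 1 and 3 the calls of Ltf, Rnf225, Wwc1, Gimap4, Rgs9bp and AI987944 were lost.

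Phototransduction genes were mostly not called. Of 17 measured genes of cone phototransduction, 1 rose and 2 fell (17.6% called, against 6.66% of all genes tested), with a median log2 fold change of -0.131 against -0.0244 over all genes. Besides Arr3, Guca1a, the other guanylate cyclase activator, fell by 0.60 (adjusted p = 0.0104), to means of 13.6 ± 0.133 in the Cnga3 and 13.6 ± 0.212 in the Cngb3 double knockout, against 14.2 ± 0.272 in the Nrl knockout (SD, n = 5 each); without Nrl knockout replicates 1 and 3 its adjusted p was 0.0527. Recoverin (Rcvrn), a calcium sensor that restrains opsin phosphorylation, rose 1.63-fold without overlap (log2 fold change 0.70, adjusted p = 0.00232). It read 10.73 to 11.09 in the Cnga3 and 10.34 to 10.72 in the Cngb3 double knockout, against 9.66 to 10.18 in the Nrl knockout. The middle-wave opsin Opn1mw (-0.13), the cone transducin Gnat2 (0.03) and the cone phosphodiesterase subunit Pde6h (-0.25) were not called. Of 2 probes of the short-wave opsin Opn1sw, the dimmer fell by 0.62 (adjusted p = 0.0419, and 0.0872 without Nrl knockout replicates 1 and 3) and the brighter had 0.32 without a call. The dimmer probe had -1.05 in the Cnga3 and -0.189 in the Cngb3 double knockout.

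Of 15 measured rod genes, 5 rose and 2 fell (46.7% called, against 6.66% of all genes). The median log2 fold change was 0.371, against -0.0244 over all genes. Summed over the 15 genes, linear normalized intensity did not rise. Its median was 3.87e+04 in the Cnga3 and 3.85e+04 in the Cngb3 double knockout, against 4.55e+04 in the Nrl knockout, with overlapping ranges. The falls were Guca1b and Pde6b. The rises were Slc24a1, the receptor transport factor Reep6 (0.67, adjusted p = 0.00374), the rod transducin Gnat1 (0.49, adjusted p = 0.0167), the photoreceptor repressor Samd7 (0.80, adjusted p = 0.0237, and 0.0519 without Nrl knockout replicates 1 and 3) and Susd3, which was at least 1.07-fold higher because no Nrl knockout array was well above background. Gnat1 read 6.74 to 7.03 in the Cnga3 and 6.33 to 6.93 in the Cngb3 double knockout, against 6.07 to 6.5 in the Nrl knockout. The rod channel genes Cnga1 (-0.44, adjusted p = 0.189) and Cngb1 (0.40, adjusted p = 0.0821) were not called, nor were the arrestin Sag (-0.36, adjusted p = 0.0723) and Pde6g (-0.09).

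Second messenger genes moved in both directions. Of all genes tested, 6.66% were called. Of 15 genes of cGMP synthesis and its calcium sensors, 2 rose (Gkap1 and Rcvrn) and 3 fell (Guca1a, Guca1b and Pde6b), 33.3% in all. Rcvrn and Guca1a were also counted in the cone list, and Guca1b and Pde6b in the rod list. Slc24a1, called among the calcium genes below, was also in the rod list, so these lists share calls. Of 18 genes of cAMP and dopamine signalling, 3 rose and 2 fell (27.8%). Next to Drd4, the cAMP phosphodiesterases Pde8a (0.64, adjusted p = 0.00651) and Pde4b (0.59, adjusted p = 0.00607) rose, and the adenylate cyclases Adcy1 (-0.81, adjusted p = 0.0199) and Adcy6 (-0.56, adjusted p = 0.038) fell. The median of the list was 0.0306. The fall of Adcy6 was lost in 10 of 15 fits that left out 1 array, that of Adcy1 in 1, and the calls of Drd4, Pde8a and Pde4b in 0. Without Nrl knockout replicates 1 and 3 the falls of Adcy1 and Adcy6 were not called (adjusted p = 0.0735 and 0.0755). Of 19 genes of calcium extrusion, stores and channels, 4 rose and 1 fell (26.3%). The rises were Atp2b1, the sodium-calcium exchangers Slc8a3 (1.0, adjusted p = 0.00481) and Slc24a1, and Mcu, the calcium uniporter of mitochondria (0.65, adjusted p = 0.0301). The fall was that of the kinase subunit Camk2b (-0.42, adjusted p = 0.0387). Without those 2 arrays Mcu had 0.989, and Camk2b was not called (adjusted p = 0.0773).

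Genes of the outer segment were called at a share near that of all genes. Of 23 measured genes of discs and the connecting cilium, 0 rose and 2 fell (8.7%, against 6.66% of all genes). Fscn2, the retinal fascin that bundles actin, fell 2.37-fold (log2 fold change -1.24, adjusted p = 0.00199), and the transport factor Tulp1 fell by 0.30 (adjusted p = 0.0459), a call lost in 13 of 15 fits that left out 1 array. Peripherin (Prph2, -0.07) and Rom1 (0.02) were not called. Pcare, an actin regulator at the photoreceptor cilium that was chosen after its values were seen, fell by 0.65 without overlap (adjusted p = 0.00289). It read 11.36 to 12.04 in the Cnga3 and 12.24 to 12.38 in the Cngb3 double knockout, against 12.65 to 12.78 in the Nrl knockout. Of 7 measured axonemal genes, Riiad1 and Ulk4 (-1.29, adjusted p = 0.019) fell (28.6% called, against 6.66% of all genes). The median log2 fold change of these 7 genes was 0.0206. Of 15 photoreceptor transcription factors, only Samd7 was called, and Crx had -0.04. Of 13 retinoid cycle genes, 0 were called by limma and 3 had an unadjusted p under 0.05.

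At the photoreceptor synapse, 5 of 22 measured genes of the ribbon synapse and vesicle release rose and 0 fell. The share called was 22.7%, against 6.66% of all genes, and the median was 0.111. The rises were the active zone protein Rims1 (0.90, adjusted p = 0.00625), pikachurin (Egflam, 0.87, adjusted p = 0.0115) and its partner dystroglycan (Dag1, 0.62, adjusted p = 0.043), the scaffold Dlg4 (0.82, adjusted p = 0.0191) and the vesicle fusion protein Stx3 (0.71, adjusted p = 0.0215). The group ranges of all 5 overlapped, and Nrl knockout replicates 1 and 3, the arrays low in lens genes, were the highest of their group for each of them. Dlg4 read 8.94 and 9.32 on those arrays and 7.89, 7.99 and 8.62 on the other Nrl knockout arrays. Without both, the log2 fold changes were larger, with 1.14 for Rims1, 1.23 for Egflam, 0.999 for Dag1, 1.2 for Dlg4 and 0.953 for Stx3. Dag1 lost its call in 11 of 15 fits that left out 1 array, and Egflam and Stx3 each have an uncalled probe with the opposite sign.

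**Figure D4:**
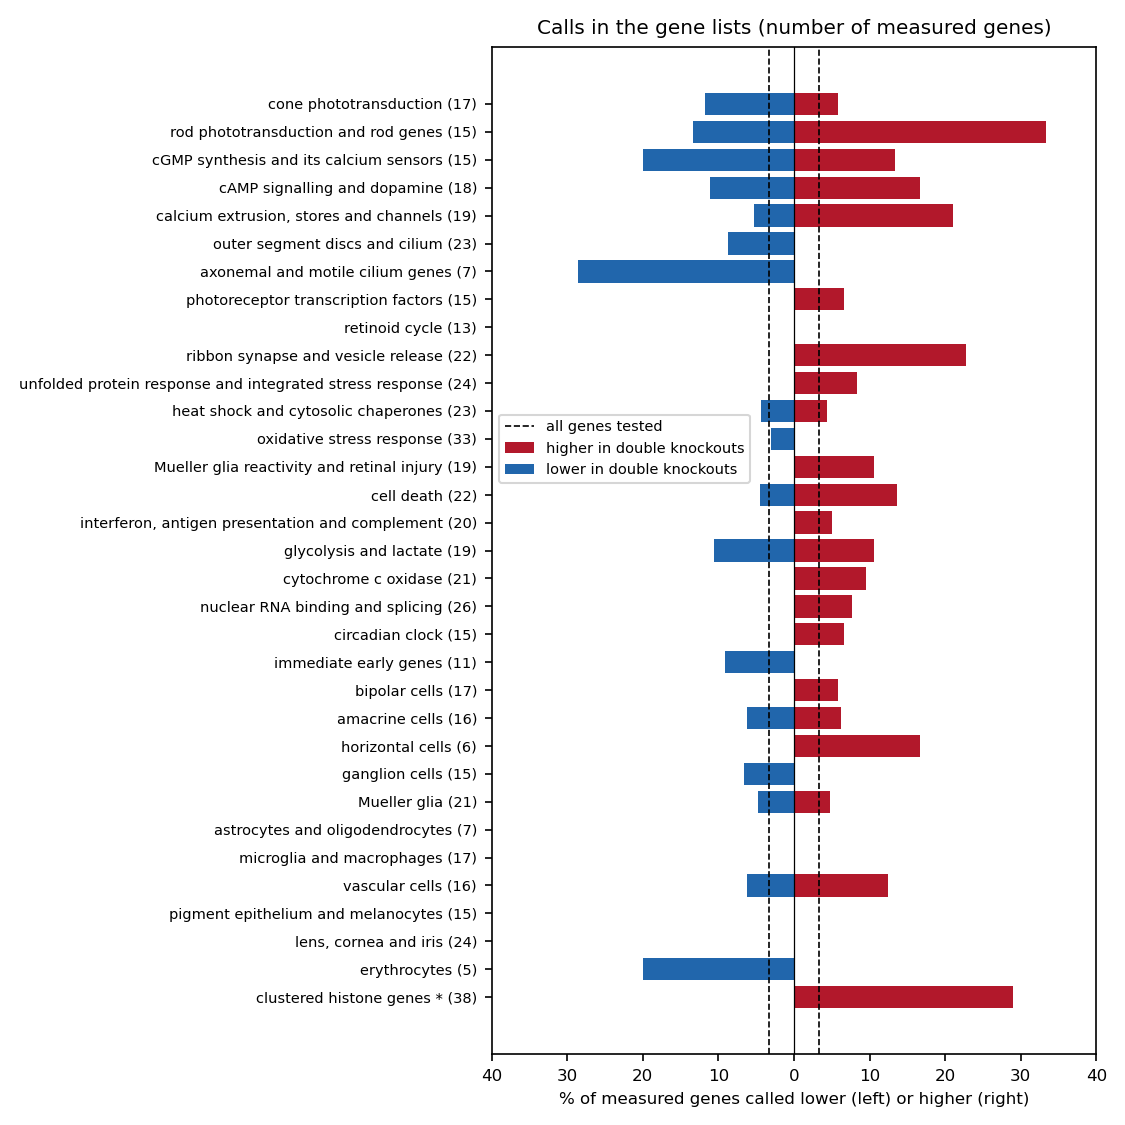
Percentage of the measured genes of each list that was called lower (left) or higher (right) in the double knockouts than in the Nrl knockout, with the number of measured genes in brackets. Dashed lines mark all genes tested (3.36% lower, 3.3% higher); the lists of rod genes and of histone genes (asterisk, added after the values were seen) reach the longest bars to the right, with 5 of 15 and 11 of 38.

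Stress and injury lists held between 3.03 and 18.2% called genes, against 6.66% of all genes. In the unfolded protein and integrated stress responses, 2 of 24 rose, the transcription factor Atf4 (0.47, adjusted p = 0.0181, no overlap) and its target Chac1 (1.06, adjusted p = 0.00447). Of 23 heat shock and chaperone genes, Hspa1a rose (0.67, adjusted p = 0.00469, no overlap) and Hsph1 fell (-0.59, adjusted p = 0.0332). Of 33 oxidative stress genes, the thioredoxin inhibitor Txnip alone was called (-0.71, adjusted p = 0.00681). Of 22 cell death genes, Pdcd4 (1.14, adjusted p = 0.00363), the cell cycle inhibitor Cdkn1a (0.73, adjusted p = 0.0186) and the calpain Capn2 (0.54, adjusted p = 0.0135) rose and the DNA repair gene Parp1 (-0.43, adjusted p = 0.033, and 0.0871 without Nrl knockout replicates 1 and 3) fell, 18.2% in all. Among 19 genes of Mueller glia reactivity, Ednrb and Stat3 (0.66, adjusted p = 0.046) rose, the second with a call lost in 13 of 15 fits that left out 1 array, and Gfap, the filament protein of reactive glia, had 0.06 (adjusted p = 0.897). Among 20 genes of the interferon response, antigen presentation and complement, Irf7 was called and no other.

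Metabolic genes split. Of 19 genes of glycolysis and lactate, the glucose transporter Slc2a1 (0.52, adjusted p = 0.0317) and the hexokinase Hk1 (0.56, adjusted p = 0.046) rose, and the hexokinase Hk2 (-0.63, adjusted p = 0.0331) and the enolase Eno1b (-0.45, adjusted p = 0.0485) fell. Of 21 genes of cytochrome c oxidase, Cox6a2 and Cox6c (0.69, adjusted p = 0.03) rose, while the median of the list was -0.169. Of 26 genes of nuclear RNA binding, Hnrnpk (0.68, adjusted p = 0.00686) and Hnrnph1 (0.46, adjusted p = 0.0369) rose. The clock repressor Nr1d2 rose (0.72, adjusted p = 0.0331), 1 of 15 clock genes, and Jun fell (-0.51, adjusted p = 0.0244), 1 of 11 immediate early genes. Jun had -0.195 in the Cnga3 and -0.831 in the Cngb3 double knockout. The share called was 21.1% for glycolysis and lactate, against 6.66% of all genes. It was 9.52% for cytochrome c oxidase, 9.09% for immediate early genes, 7.69% for nuclear RNA binding and 6.67% for clock genes. These last shares were closer to that of all genes. Without Nrl knockout replicates 1 and 3 the calls of Hk2, Eno1b, Hnrnph1 and Jun were lost (adjusted p of 0.0827 to 0.0999).

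Part of the histone genes rose. The list was added after the values had been seen, so its count describes these arrays and supports nothing further. Of 38 measured genes of the histone clusters, 11 rose and 0 fell (28.9% called, against 6.66% of all genes). The median log2 fold change was 0.337, against -0.0244 over all genes. H4c8 read 7.78, 7.44, 7.13, 8.54 and 7.81 in the Cnga3 double knockout, 7.77, 7.87, 7.73, 8.04 and 7.27 in the Cngb3 double knockout, and 6.73, 6.24, 7.02, 6.87 and 6.3 in the Nrl knockout, without overlap. H2aw (0.75, adjusted p = 0.00232) and H2ac6 also had no overlap. The others were H4c18 (0.97), H3c6 (0.62), H2bu2 (0.60), H2bc4 (0.58), H3c4 (0.58), H2bu1-ps (0.54), H2bc6 (0.52) and H4c3, which was not well above background on any Nrl knockout array. Replication-dependent histone genes are close copies of each other, so a probe may read several, and most of their mRNAs lack a poly(A) tail. Chromosome 13, which carries a histone cluster, had 27 genes higher and 7 lower of 312 (10.9% called, against 6.66% of all genes). Its rises include called histone genes such as H4c8 and H2ac6, so the count is not a separate observation. Chromosomes 10 (9.78% called) and 17 (9.17%) came close. H2bc6 lost its call in 10 and H3c6 in 12 of the 15 fits that left out 1 array, and H2bc6 and H2bu1-ps were not called without Nrl knockout replicates 1 and 3 (adjusted p = 0.0999 and 0.174).

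**Figure D5:**
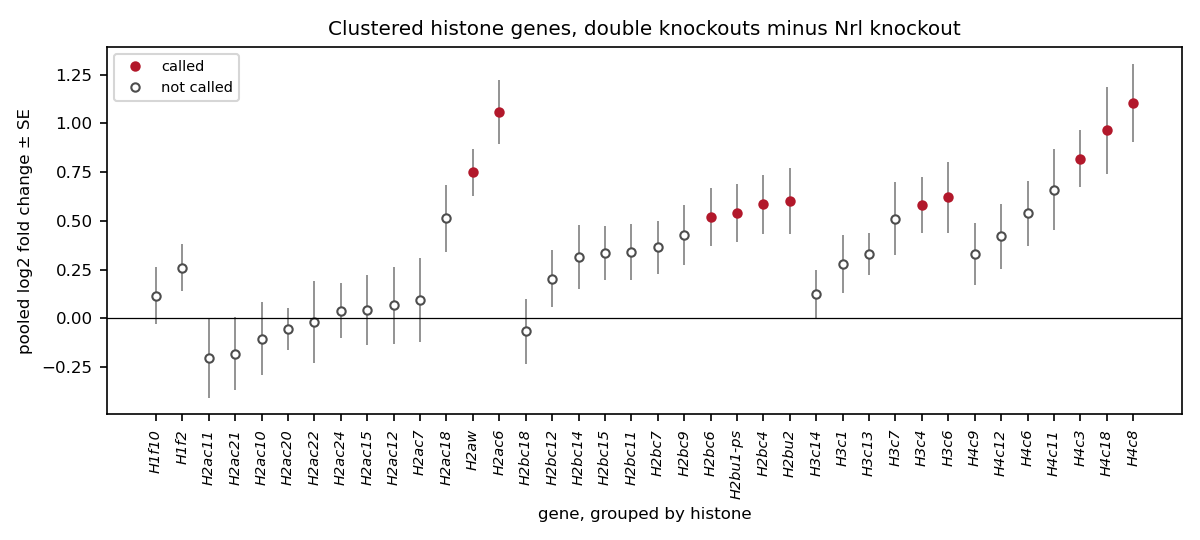
Pooled log2 fold change of double knockouts minus the Nrl knockout, with SE bars, for the 38 measured clustered histone genes, grouped by histone. The 11 called genes are marked; all are above 0, led by H4c8 at 1.10 and H2ac6 at 1.06.

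Marker lists of other retinal cells held between 0 and 18.8% called genes, against 6.66% of all genes. The lists with 0% were those of astrocytes and oligodendrocytes and of microglia and macrophages. Calls were 1 of 17 for bipolar cells (Gnao1, 0.51), 2 of 16 for amacrine cells (Tfap2b, 0.45; Npy, -0.50), 1 of 6 for horizontal cells (Tpm3, 0.61), 1 of 15 for ganglion cells (Thy1, -0.51), 2 of 21 for Mueller glia (Aqp4, 0.84; Hes5, -0.47) and 3 of 16 for vascular cells. The fall of Hes5 lay mostly in the Cngb3 double knockout, with -0.844 there and -0.0894 in the Cnga3 double knockout (limma, adjusted p of the difference 0.0409). Without Nrl knockout replicates 1 and 3 Hes5 was not called (adjusted p = 0.149), and Tfap2b had 0.681. In vascular cells, Flt1 rose by 0.66 without overlap (adjusted p = 0.00768), and the basement membrane collagen Col4a1 rose by 1.71 (adjusted p = 0.0234), which was 0.67 (adjusted p = 0.0919) without Nrl knockout replicates 1 and 3, the arrays low in lens genes. The summed level of 24 lens, cornea and iris genes ran from 1.46e+05 to 2.42e+05 in the Cnga3 and 1.34e+05 to 3.1e+05 in the Cngb3 double knockout, against 930 to 2.37e+05 in the Nrl knockout. None of these 24 genes was called by limma, while 17 had an unadjusted p under 0.05 and the median was 2.59. The summed level of 17 microglia and macrophage genes ran from 2490 to 9140 in the Cnga3 and 2540 to 2850 in the Cngb3 double knockout, against 1690 to 6770 in the Nrl knockout, with 0 calls by limma and 2 at an unadjusted p under 0.05. With lens probes left out before normalization, 1022 probes were called in the pooled contrast, 991 of them among the 1001; the part of microglia in the changes was not tested.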

How the data were processed

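RNA from the 2 retinas of each of 15 mice was hybridised to Illumina mouse bead arrays, 5 arrays per genotype. The submitters' processing notes name GenomeStudio; its version and settings are not given here. The deposited non-normalized table holds 1 linear intensity per probe and array. A detection p-value stands beside each intensity, per the file headers, in steps of 1 in 798. Log2 values were deposited by the authors as their processed table, and these equal the log2 of quantile-normalized intensity to within 5e-09, with a median of 7.255 on each array. The sources used here give no slide, scan or batch, so none could be tested.

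Intensities were background-corrected from the detection p-values, quantile-normalized and put on the log2 scale with neqc (offset 16) in limma 3.58.1 and R 4.3.3. A probe was kept when its detection p was below 0.01 on 5 or more arrays. A linear model with 3 groups (12 residual and 4.73 prior degrees of freedom) gave the pooled contrast, the mean of both double knockouts minus the Nrl knockout, each genotype's own contrast and the difference between genotypes. P-values are two-sided, from limma's moderated test, and adjusted over the 13077 probes by Benjamini and Hochberg. Calls needed an adjusted p below 0.05 with the same sign in both genotypes. The model was tested on simulated data. Symbols came from the platform annotation, with 1 symbol for 23978 probes and none for 1719, and 23962 probes were matched to a RefSeq gene. A gene in a list is given by its brightest kept probe. Promoters are from RefSeq. Each array is 1 animal, and the number of arrays limits the precision.

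The comparison, its gene lists and its rules were chosen with earlier results of these data known, and the list of histone genes, the promoter motif and a few genes marked in the text were added after the values were seen. Named genes are the targeted genes, the 15 largest called rises and 15 largest called falls without overlap, the 10 largest in each direction called only when pooled, the 8 probes with the lowest p for the difference between genotypes among the pooled calls, and at most 4 called members of each list, or 2 uncalled ones as values. The lists cover cone and rod phototransduction, cGMP, cAMP and calcium signalling, outer segment and axonemal genes, photoreceptor transcription factors, the retinoid cycle, the ribbon synapse, stress, injury, cell death and interferon genes, metabolism, RNA binding, clock and immediate early genes, and markers of the retinal and neighbouring cell types. Alternatives were the authors' values, median centring, other filters on dim probes, a 2-group fit, array weights, the replicate number as a block, each array left out, and, added after seeing the data, fits without lens probes or with the brightest probe only.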

Additional observations from a re-analysis of the deposited data

Results flagged for a closer look

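The test of the Cnga3 minus the Cngb3 double knockout passed for 12 named probes (log2 differences, limma, adjusted p under 0.05). It was higher in the Cnga3 double knockout for Cngb3 (2.09), the unnamed probes ILMN_2819558 (1.52) and ILMN_2632299 (0.913), Ermap (0.935) and Hes5 (0.754). It was lower for both probes of Ednrb (-1.76 and -1.75), Dnaic1 (-1.76), Cox6a2 (-1.7), Rdh5 (-1.44), Pde6b (-1.26) and Slc24a1 (-1.13). Hes5, a Notch target of Mueller glia, and Rdh5, an 11-cis-retinol dehydrogenase of the pigment epithelium, had pooled changes of -0.47 and -0.56, the second without a call. ILMN_2632299 was 1.42 higher in the Cnga3 and 0.50 higher in the Cngb3 double knockout than in the Nrl knockout, and ILMN_2819558 changed by -0.27 and -1.78.

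In 26 of 357 group tests over 119 named probes, 1 array lay far from the other 4 of its group, where chance gives about 5%. In the Cnga3 double knockout, replicate 4 was the lone array for 8 probes. It was high for Aqp5 (7.1, others 5.39 to 5.84) and Rdh14 (9.78, others 9.06 to 9.24). It was low for the Y-linked genes Eif2s3y (4.4, others 9.41 to 9.89) and Kdm5d (4.54, others 6.83 to 7), and for Hk2 (11.4, others 12.5 to 12.7), Parp1 (9.07, others 9.62 to 9.76), Tfap2b (11.3, others 11.6 to 11.7) and ILMN_2819558 (7.59, others 8.57 to 8.77). Replicate 2 was high for Irf7 (8.11, others 6.71 to 6.94) and low for Eno1b (9.29, others 9.84 to 10), and replicate 1 was low for Susd3 (5.4, others 5.92 to 6.01).

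In the Cngb3 double knockout, replicate 5 was low for Cdkn1a (6.46, others 7.03 to 7.15), Cox6a2 (6.16, others 7.36 to 7.55), Hspd1 (7.17, others 7.56 to 7.69) and Rdh5 (9.9, others 10.6 to 10.7). It was high for Nme7 (4.78, others 4.45 to 4.5). Replicate 3 was high for Cnp (7.06, others 6.24 to 6.43) and Samd7 (7.23, others 6.71 to 6.85), and replicate 4 was high for Gkap1 (10.4, others 10 to 10.1) and low for Thy1 (11.2, others 11.4 to 11.5).

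In the Nrl knockout there were 6 such values. Replicate 3 was low for Fstl5 (5.37, others 7.22 to 7.81), Hnrnph2 (4.69, others 5.94 to 6.17), Irf7 (4.73, others 5.77 to 5.95) and Tgs1 (4.46, others 6.05 to 6.4). Replicate 1 was high for Snx14 (6.71, others 5.79 to 5.96), and replicate 5 was low for Eif2s3y (4.43, others 9.03 to 10.2). The Y-linked Kdm5d was also lowest there (4.75, others 6.46 to 7.97). Low Y-linked signal thus marked this array and Cnga3 double knockout replicate 4, while Cngb3 double knockout arrays read 9.05 to 9.42 for Eif2s3y. The animals may therefore differ in sex, which was not in the model. Without these arrays in turn the pooled count was 589 and 1461, against 1001.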

How the results depend on the processing

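With 1 array left out at a time, the pooled contrast gave 501 (without Nrl knockout replicate 2) to 1461 probes (without Cnga3 double knockout replicate 4), the Cnga3 contrast 551 to 1228, the Cngb3 contrast 130 to 829 and the difference between genotypes 19 to 187. A set of 146 called probes joined the named probes with those of genes chosen after their values were seen. Of these, 78 kept their call in all 15 of these fits. The call was kept by 135 under the authors' values, 118 under median centring and 115 without Nrl knockout replicates 1 and 3, and none changed sign in these last 3 fits. The pooled count was 559 (49% higher) with the brightest probe of each gene, 208 when both own contrasts had to pass, 1168 (51.6% higher) under the authors' values, 804 (75% higher) under median centring, 859 (49.1% higher) for probes detected on all 15 arrays and 1012 with a replicate block, beside 1001 (58.5% higher). Median centring put the median of all probes at 0.0573, against -0.0062 in the fit without the replicate block.

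The Cnga3 contrast gave 1880 probes with array weights and 636 with the brightest probe, and the Cngb3 contrast 1054 and 229, and 848 without Nrl knockout replicates 1 and 3. The difference between genotypes gave 201 probes under median centring, 1170 with array weights, 122 with the replicate block and 86 without Nrl knockout replicates 1 and 3. The causes were not tested. Of 15 correlations of same-numbered deviations, 4 passed 0.1 (-0.107 to 0.28), and 5 of 15 arrays correlated best with their own number. These values do not settle whether replicate numbers pair the arrays. The sign of the first Cnga3 probe turned with array weights (0.0379), without Nrl knockout replicate 3 (0.00249) and without replicates 1 and 3 (0.131), and those of Eif2s3y (-0.413) and Kdm5d (-0.244) turned without Nrl knockout replicate 5; none of these was called, and with 1 array left out they ranged over -0.256 to 0.00249, -0.413 to 1.09 and -0.244 to 0.561. Probes near background limit what can be read, since a probe undetected in a group has only a bound there.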

Other observations

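Several genes outside the lists also moved with loss of either subunit; they were chosen after their values were seen. Hif1a, the oxygen-sensitive transcription factor, rose by 1.03 on the log2 scale (adjusted p = 0.00395), with 8.76 to 9.2 in the Cnga3 and 8.25 to 9.02 in the Cngb3 double knockout, against 7.03 to 8.36 in the Nrl knockout, and its relative Epas1 was at least 1.07-fold higher. Ezh2, the methyltransferase of the Polycomb complex, rose by 0.85 (adjusted p = 0.00744), the repressor Trps1 by 1.09 (adjusted p = 0.00311) and the Wnt co-receptor Lgr5 by 1.10 (adjusted p = 0.0174). Genes of neuronal signalling that rose were the sodium channel Scn1a (0.85, adjusted p = 0.0236, and 0.0808 without Nrl knockout replicates 1 and 3), the GABA-B receptor Gabbr1 (0.67, adjusted p = 0.0168), the G protein subunits Gnas (0.66, adjusted p = 0.0138) and Gnaq (0.37, adjusted p = 0.0301), and both probes of Rtn4 (0.94 and 0.66).

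A few other genes, likewise chosen after their values were seen, fell. Alox5ap, which serves leukotriene synthesis, fell by 0.93 (adjusted p = 0.00266), Cd37 by 0.86 (adjusted p = 0.00469), the signalling adaptor Hcst by 0.62 (adjusted p = 0.0138), Hcls1 by 0.60 (adjusted p = 0.0298), the receptor subunit Csf2ra by 0.52 (adjusted p = 0.0265) and the brighter probe of the kinase Zap70 by 0.52 (adjusted p = 0.0226, and 0.0747 without Nrl knockout replicates 1 and 3). The microglia and macrophage list had 0 calls and a median of -0.0384, with values of -0.67 for Fcer1g (adjusted p = 0.149) and -0.61 for Fcrls (adjusted p = 0.104). The retinal progenitor factor Atoh7 (-0.72, adjusted p = 0.00615) and the bipolar cell factor Fezf2 (-0.54, adjusted p = 0.0214) fell, as did Erdr1 (-1.79, adjusted p = 0.0317) and Ift122 (-0.40, adjusted p = 0.0494, and 0.0631 without Nrl knockout replicates 1 and 3).

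Some genes read differently by probe. Of 5 probes of Actb, 3 fell (-0.73, -1.08 and -1.08, adjusted p = 0.00313, 0.00837 and 0.0104) and 2 had 0.76 and 0.23 without a call. Slc1a2, a glutamate transporter, fell on 1 of 3 probes (-0.61, adjusted p = 0.00625), and Matr3, a nuclear matrix protein, rose on 1 (1.5, adjusted p = 0.0188, and 0.85 without Nrl knockout replicates 1 and 3) and not on its brighter one (0.52, adjusted p = 0.231).

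The remaining lists gave 0 calls of 15 for pigment epithelium and melanocytes by limma, with 4 at an unadjusted p under 0.05 and -1.03 for Pmel (adjusted p = 0.144) and -0.46 for Slc45a2. The summed level of these 15 genes ran from 1.17e+04 to 3.12e+04 in the Cnga3 and 2.14e+04 to 3.38e+04 in the Cngb3 double knockout. In the Nrl knockout it ran from 1.89e+04 to 2.95e+04. Its medians were 1.43e+04, 3.27e+04 and 2.46e+04 in that order. Astrocytes and oligodendrocytes gave 0 of 7, with 2 at an unadjusted p under 0.05 (Cnp, -0.58; Aldh1l1, 0.36). The sex-linked genes gave 0 of 3, with 0 at an unadjusted p under 0.05. Of 5 measured erythrocyte genes 1 fell, Ermap. In the retinoid cycle, Rdh14 had 0.31 (adjusted p = 0.153) and Rdh5 -0.56 (adjusted p = 0.183).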
